A study of Homo sapiens with 6 samples.

Results

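The claudin genes of colon epithelium were described here in LS174T, an established human line of colon cancer cells that secrete mucin. The members were the 9 genes CLDN1, CLDN2, CLDN3, CLDN4, CLDN7, CLDN8, CLDN12, CLDN15 and CLDN23, taken by gene symbol from the platform annotation, out of 19775 genes named on the arrays. They were read by 15 probe sets with a single gene. Of these, 13 lay above the filter on dim probe sets, which left 8 of the 9 genes for testing. CLDN8 was the gene left out.

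Cultures were exposed for 48 h to CompE at 250 nM (3 arrays) or to the vehicle DMSO (3 arrays), with 1 Affymetrix array per culture. The labels do not spell out CompE. The same short name is widely used for Compound E, which blocks gamma-secretase and so keeps cleaved Notch from reaching the nucleus. All cultures were of a single tumour line in serum-containing medium, and RNA, not junction protein or barrier function, was measured. In bulk RNA, fewer cells of a type and less RNA per cell cannot be told apart.

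Claudins are membrane proteins with 4 transmembrane helices that form the strands of the tight junction and set what passes between neighbouring epithelial cells. Sealing claudins tighten that route, whereas pore-forming claudins build channels for small cations and, for CLDN2, water. Along the gut, the balance between them differs from crypt to surface, and CLDN2 is best known in crypt cells and in inflamed colon. Members were grouped on that basis as sealing (CLDN1, CLDN3, CLDN4, CLDN7 and CLDN8), pore-forming (CLDN2 and CLDN15) or of other or debated role (CLDN12 and CLDN23).

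CLDN2 was the claudin that passed the test, and it fell. Its single probe set read 109.5, 115 and 117 intensity units in CompE, against 188, 175 and 165 in DMSO. Every CompE array lay below every DMSO array. The means were 114 ± 4.05 in CompE and 176 ± 11.6 in DMSO (SD, n = 3 each), a 1.54-fold lower level in CompE. The log2 change was -0.63 ± 0.07 (SE, 95% interval -0.79 to -0.46, limma adjusted p = 0.00745). Both groups were above 45.7, the level of Bacillus control probe sets that human RNA does not match. Of the 8 claudins tested 1 was lower and 0 were higher at an adjusted p under 0.05, beside 2.57% of all 14308 genes lower and 4.56% higher (7.14% in all). By probe set, 1 of the 13 claudin probe sets passed, beside 4.28% of all. One gene in 8 is too few to set the claudins apart from that background. With each array left out in turn, the change lay between -0.67 and -0.58, and the adjusted p was at most 0.0434 (without CompE replicate 1). The fit that tested every named probe set with no filter on dim ones gave an adjusted p of 0.0620.

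As a check of the agent and the cells, 3 genes downstream of Notch and 16 genes of colon epithelium were read. HES1, a repressor gene induced by Notch, was at 289 ± 29.2 in CompE and 811 ± 58.2 in DMSO (SD, n = 3 each; limma adjusted p = 0.00198). ATOH1, which HES1 represses, was at 574 ± 53.7 in CompE and 94.1 ± 13.2 in DMSO (limma adjusted p = 0.000892). OLFM4, a crypt cell gene and Notch target, was 316 ± 17.5 in CompE and 1923 ± 105 in DMSO (limma adjusted p = 0.000253). All 16 colon epithelial identity genes were above the Bacillus level, among them EPCAM, named after its values were seen, at 6965 ± 308 in CompE and 6682 ± 167 in DMSO. Of these 16 genes 3 rose (MUC2, TFF3 and CDX2) and 1 fell (CDH17), beside 7.14% of all genes called in either direction.

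**Figure D1:**
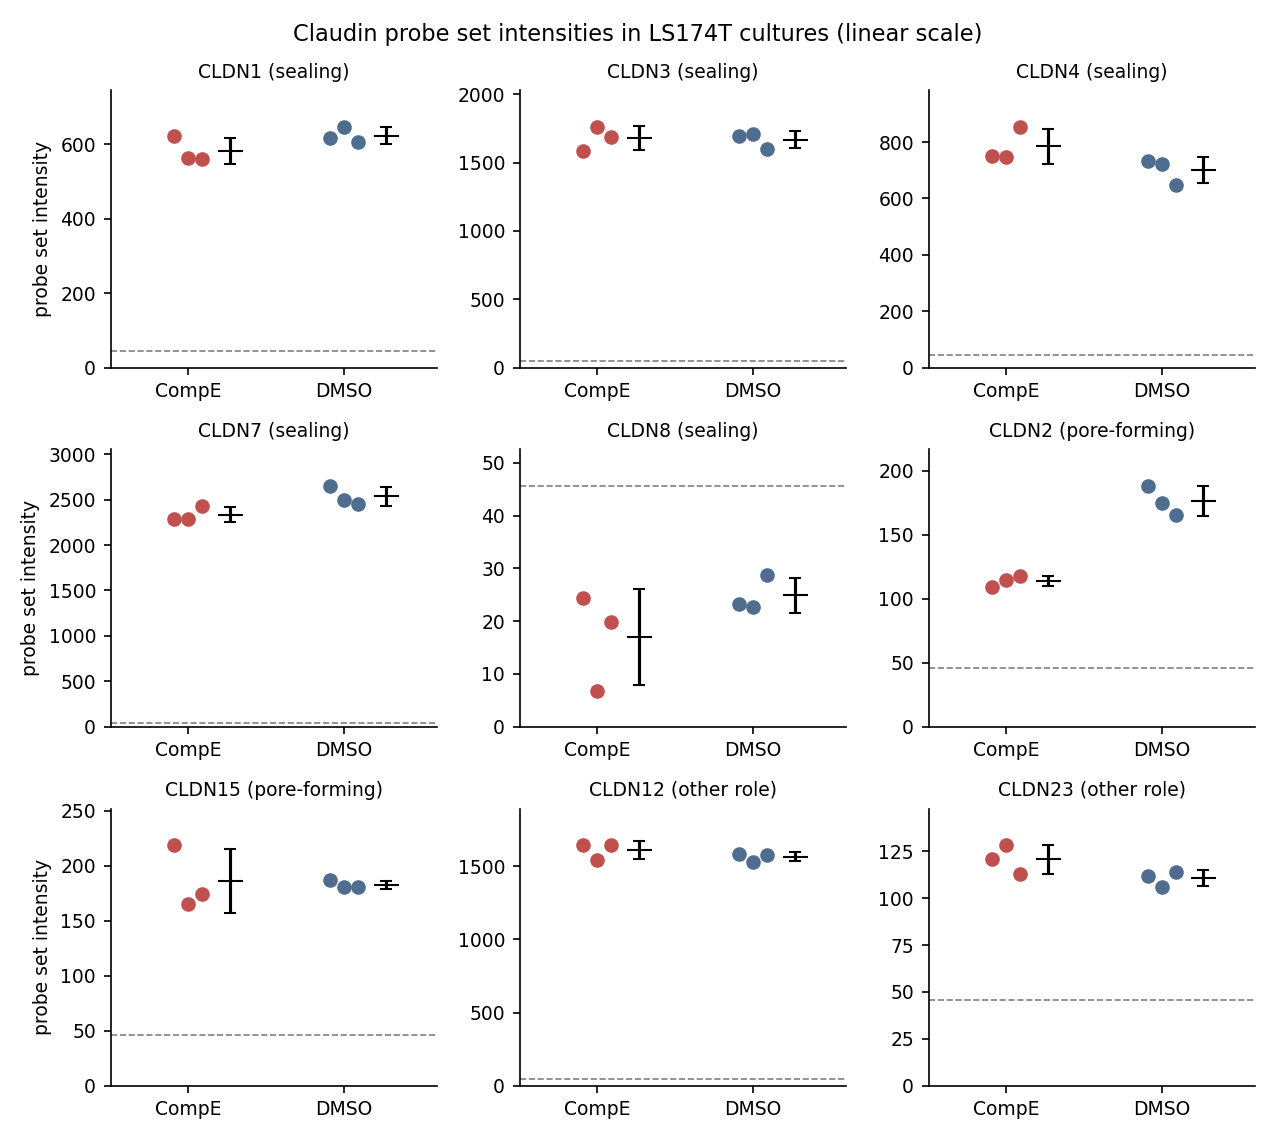
Intensity of the brightest probe set of each claudin (vertical axes, linear intensity units from 0) in the CompE and the DMSO arrays (points, 3 each), with the mean and SD as a bar and the Bacillus control level of 45.7 as a dashed line. CLDN2 is the panel with a clear gap, 114 in CompE against 176 in DMSO, and CLDN8 lies below the dashed line on all 6 arrays; heights are not comparable between panels because each probe set has its own brightness.

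The CLDN2 gene has 2 annotated starts on chromosome X. Which of their transcripts the probe set reads was not analysed here. The 250 bases before each start are shown because CLDN2 was the member that changed, together with those of CLDN15, the other pore-forming gene. Sequences are from RefSeq (GRCh38.p14), 5′ to 3′ on the strand of the gene. Capitals mark letters matching any of 3 short motifs on either strand: TGGGAA (core of the RBPJ site, through which Notch acts on DNA), TTTAT (core of sites for CDX factors) and GTTAAT (part of the HNF1 site). No capital letter belongs to more than 1 motif.
CLDN2, upstream start, chrX:106899914-106900163, plus strand: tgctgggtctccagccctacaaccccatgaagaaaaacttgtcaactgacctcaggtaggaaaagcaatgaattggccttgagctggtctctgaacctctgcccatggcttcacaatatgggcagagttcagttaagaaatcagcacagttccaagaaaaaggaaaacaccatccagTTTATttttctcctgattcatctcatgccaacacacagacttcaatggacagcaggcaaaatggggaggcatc
CLDN2, downstream start, chrX:106918110-106918359, plus strand: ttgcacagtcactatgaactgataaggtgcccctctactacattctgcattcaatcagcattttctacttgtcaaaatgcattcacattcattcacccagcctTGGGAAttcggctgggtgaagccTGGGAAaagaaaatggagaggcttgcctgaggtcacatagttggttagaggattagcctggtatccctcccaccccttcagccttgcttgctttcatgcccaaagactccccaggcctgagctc
CLDN15, chr7:101237803-101238052, minus strand: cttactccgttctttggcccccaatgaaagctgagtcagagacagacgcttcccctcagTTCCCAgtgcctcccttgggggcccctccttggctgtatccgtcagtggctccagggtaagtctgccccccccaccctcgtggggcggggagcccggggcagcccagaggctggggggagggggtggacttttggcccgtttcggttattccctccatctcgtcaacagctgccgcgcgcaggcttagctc

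The downstream CLDN2 window held TGGGAA at 2 places, 147 to 142 and 124 to 119 bases before the start. At least 1 match was present in 20.8% of 35116 promoter windows of the same length, and 2 or more in 2.9%. The CLDN15 window held 1 match, on the opposite strand, and CLDN12 and 1 of 2 CLDN7 windows also held 1 each. TGGGAA was thus present for 4 of the 7 claudins matched in the table, of which CLDN2 alone had passed the test. That count is by gene, with 2 windows each for CLDN2 and CLDN7, whereas the 20.8% is a share of windows. By window it was 4 of 9, too few to set the claudins apart from that share. TTTAT occurred once in the upstream CLDN2 window, 73 to 69 bases before the start, and in 32.7% of all windows. GTTAAT was in none of the 9 windows of these claudins and in 6.23% of all. Such letters describe the sequence and do not show that a factor binds there. The CLDN2 windows held 46% and 48.8% G and C, against a median of 58% over all windows.

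CLDN15, which forms a cation pore best known from the small intestine, did not pass the test. Its brighter probe set read 219, 165 and 174 in CompE, against 187, 181 and 180 in DMSO. CompE replicate 1 was the highest array and the other CompE arrays were the lowest, so that the groups overlapped. The means were 186 ± 28.9 in CompE and 183 ± 3.73 in DMSO (SD, n = 3 each). The log2 change was 0.02, with a 95% interval of -0.26 to 0.29 (limma adjusted p = 0.946). The dimmer probe set read 97.6, 76.6 and 64.6 in CompE, against 67.9, 59.3 and 55.3 in DMSO, and gave 0.37 ± 0.17 (SE; limma adjusted p = 0.263 over all probe sets). The interval of CLDN15 lay wholly above that of CLDN2. Whether these 2 pore-forming genes differed in response was not tested. Their median change of -0.31 is the midpoint of a called and an uncalled gene.

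None of the 4 sealing claudins tested passed, and their log2 changes ran from -0.12 to 0.16 with a median of -0.05. Over all genes tested the median was 0.02. CLDN4, a receptor of Clostridium perfringens enterotoxin like CLDN3, read 751, 747 and 855 in CompE, against 734, 723 and 648 in DMSO. The groups did not overlap, but the gap between them was small. The means were 784 ± 61.0 in CompE and 702 ± 46.5 in DMSO (SD, n = 3 each; log2 change 0.16, 95% interval -0.04 to 0.36, limma adjusted p = 0.294). A dimmer CLDN4 probe set had a log2 change of 0.05.

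CLDN7, which binds the adhesion protein EPCAM and lies along the lateral membrane as well as at the junction, read 2289, 2289 and 2427 in CompE, against 2655, 2500 and 2453 in DMSO. Here too the groups did not overlap, with CompE lower. The means were 2335 ± 79.8 in CompE and 2536 ± 106 in DMSO (SD, n = 3 each; log2 change -0.12, 95% interval -0.26 to 0.02, limma adjusted p = 0.259). Counting CLDN2, CLDN4 and CLDN7, 3 of the 8 claudins tested had groups that did not overlap. Over all genes this held for 32.2%, so that the share among claudins was near the background.

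CLDN1, the sealing claudin whose loss is lethal to the skin barrier of mice, read 623, 562 and 561 in CompE, against 618, 647 and 605 in DMSO. CompE replicate 1 lay within the DMSO values. The change was -0.10 (95% interval -0.26 to 0.06, limma adjusted p = 0.397), and the dimmer probe set gave -0.16. CLDN3 read 1584, 1763 and 1691 in CompE, against 1696, 1710 and 1600 in DMSO. These groups overlapped fully, with a change of 0.01 (95% interval -0.14 to 0.16, limma adjusted p = 0.953), and the second probe set gave -0.00268. That second set has a name ending in x, by which the maker marks probes that can match other transcripts.

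CLDN8, a sealing claudin of the distal colon that limits back-leak of sodium, could not be read. Its probe set gave 24.4, 6.78 and 19.8 in CompE, against 23.3, 22.8 and 28.7 in DMSO. All 6 values were under the Bacillus level, so no fold is given (exact permutation p = 0.3, two-sided, where 0.1 is the smallest that 3 against 3 allows).

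For the 4 sealing claudins tested, the 95% intervals put the ratio of CompE to DMSO between 0.837 and 1.29. A p above the threshold does not show that a gene was equal in both groups. The CLDN2 interval, 0.578 to 0.725 as a ratio, lay below each of these intervals. A test of CLDN2 against the sealing claudins as a class was not made, because the members had been chosen with results of these data known.

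**Figure D2:**
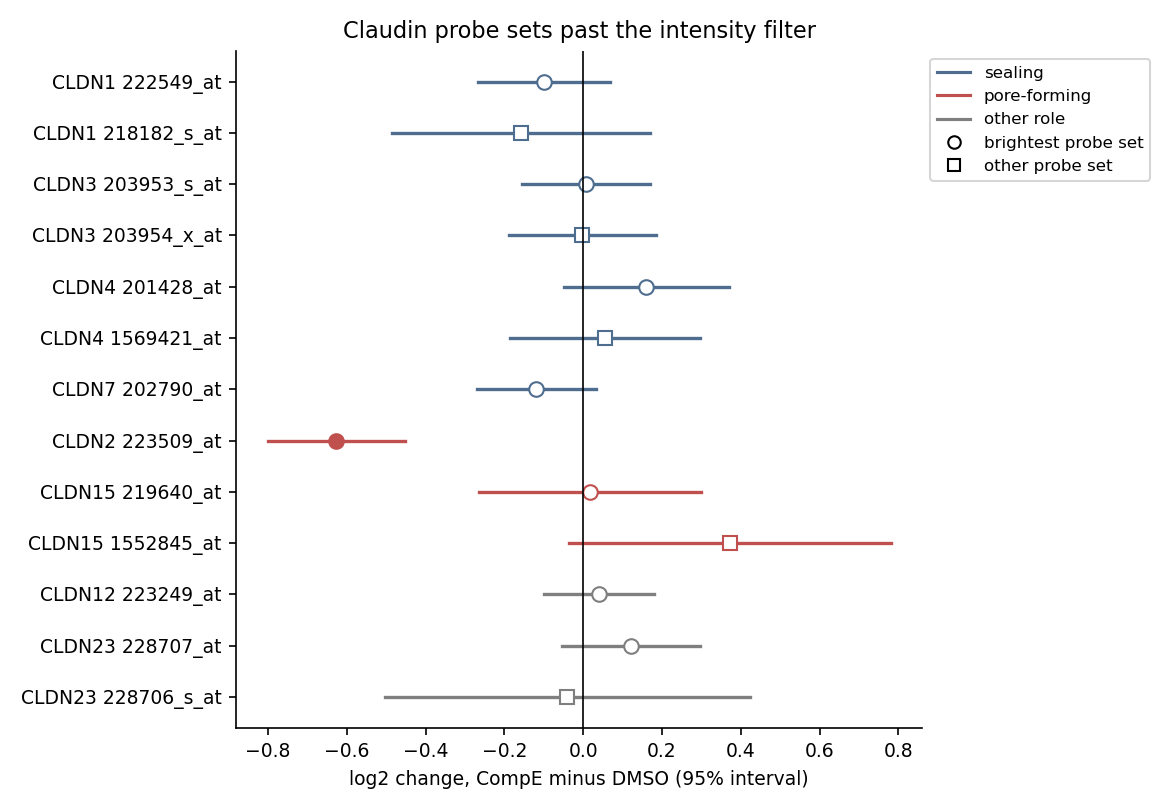
Log2 change, CompE minus DMSO (horizontal axis), with its 95% interval for the 13 claudin probe sets above the filter, in a limma fit of all 26962 named probe sets above it. Circles are the brightest probe set of a gene and squares its other probe sets; the filled symbol, CLDN2, is the probe set past an adjusted p of 0.05, and the intervals of the other 12 include 0.

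CLDN12 lacks the C-terminal PDZ-binding motif of most claudins and has been linked to paracellular calcium passage. It read 1648, 1541 and 1642 in CompE, against 1587, 1532 and 1580 in DMSO. The groups overlapped, with a change of 0.04 (95% interval -0.09 to 0.17, limma adjusted p = 0.689). Another probe set is annotated to both PTTG1IP2 and CLDN12 and was below the Bacillus level in both groups.

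CLDN23, a claudin of differentiated colonocytes, read 121, 129 and 113 in CompE, against 112, 106 and 114 in DMSO on its brightest probe set. CompE replicate 3 lay within the DMSO values. The change was 0.12 (95% interval -0.04 to 0.29, limma adjusted p = 0.326). Its other 2 probe sets had means under the Bacillus level in both groups, so no fold is given.

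Of 16 other claudin family genes, 13 had a probe set with a single gene, 8 were tested and 0 passed in the limma fit (unadjusted p was under 0.05 for 1 gene, lower in CompE). That 1 was CLDND2, a claudin-domain gene under the Bacillus level in both groups (adjusted p = 0.0775). Of the 8 tested, 3 were above that level, namely CLDND1, CLDN14 and CLDN18. CLDND1, a claudin-domain gene, was at 920 ± 58.4 in CompE and 837 ± 30.4 in DMSO (SD, n = 3 each; log2 change 0.13, limma adjusted p = 0.280). CLDN14 was at a mean of 71.0 in CompE and 68.2 in DMSO. CLDN18, a stomach and lung claudin, was at 83.9 ± 7.31 in CompE and 75.9 ± 8.73 in DMSO (SD, n = 3 each; limma adjusted p = 0.463). These 3 were named after their values were seen.

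The tight junction also holds occludin-type and angulin membrane proteins and a cytoplasmic plaque that ties claudins to actin. Of 11 membrane and cingulin-type genes tested, 1 rose, 1 fell and 9 did not pass, with a median log2 change of -0.06. The share called over all genes was 7.14%. OCLN, which encodes occludin, fell to 819 ± 17.9 in CompE, against 974 ± 34.3 in DMSO (SD, n = 3 each; log2 change -0.25, limma adjusted p = 0.0447). Its 3 other probe sets gave -0.31 to -0.21, none past the threshold. ILDR1, an angulin of contacts where 3 cells meet, rose to 129 ± 3.30 in CompE, against 101 ± 4.40 in DMSO (log2 change 0.35, limma adjusted p = 0.0234). Its other probe set gave 0.10 and was not called, and the mean of both gave 0.23 (limma adjusted p = 0.196). Both calls ended on leaving out any 1 array (highest adjusted p 0.131 for OCLN and 0.0866 for ILDR1). In those fits the change lay between -0.28 and -0.22 for OCLN and between 0.32 and 0.38 for ILDR1. Over all genes, too, fewer were called in each such fit, which also holds for the genes below.

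Of 18 scaffold and polarity genes tested, 1 rose, 0 fell and 17 were not called by limma, beside 7.14% of all genes called. The unadjusted limma p was under 0.05 for 4 higher genes, PATJ included, and 2 lower ones, and the median was 0.02. PATJ, a scaffold of the Crumbs polarity complex, rose to 579 ± 21.0 in CompE, against 475 ± 4.79 in DMSO (SD, n = 3 each; log2 change 0.28, limma adjusted p = 0.0305). Its 4 other probe sets ranged from -0.20 to 0.47, with 1 past the threshold in the same direction and 1 of opposite sign. The mean of its probe sets gave 0.19 (limma adjusted p = 0.341). The PATJ call ended on leaving out any 1 array (highest adjusted p 0.107). TJP1, which encodes the claudin-binding scaffold ZO-1 and was named after its values were seen, changed by -0.01 (limma adjusted p = 0.915).

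Adherens junction genes gave 1 fall among 11 tested, 0 rises by limma (unadjusted p was under 0.05 for 1 higher gene and for 3 lower ones, CDH17 included) and a median of -0.04. CDH17, the liver-intestine cadherin, fell to 2170 ± 32.0 in CompE, against 2691 ± 83.0 in DMSO (SD, n = 3 each; log2 change -0.31, limma adjusted p = 0.0229). Desmosome genes moved both ways, with 1 rise and 2 falls among 10 tested and a median of 0.05. Over all genes tested 7.14% were called, and both lists are too short to set apart from that share. The plakophilin gene PKP3 fell to 539 ± 17.6 in CompE, against 695 ± 36.7 in DMSO (limma adjusted p = 0.0266), and PKP2 to 903 ± 57.8 in CompE, against 1203 ± 71.4 in DMSO (limma adjusted p = 0.0308). The other probe set of PKP3 gave -0.47 and that of PKP2 -0.30, neither past the threshold. With probe sets averaged PKP3 passed (-0.42, limma adjusted p = 0.0386) and PKP2 did not (-0.36, limma adjusted p = 0.0870). DSC2, a desmosomal cadherin gene, rose to 1662 ± 40.1 in CompE, against 1397 ± 48.3 in DMSO (limma adjusted p = 0.0450). The 3 other DSC2 probe sets ranged from -0.20 to 0.26, with 1 of opposite sign and none past the threshold, and the mean of its probe sets gave 0.11 (limma adjusted p = 0.534). The calls of CDH17, PKP3 and DSC2 ended on leaving out any 1 array (highest adjusted p 0.0891, 0.0986 and 0.150), and that of PKP2 in 5 of 6 such fits (highest 0.109).

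**Figure D3:**
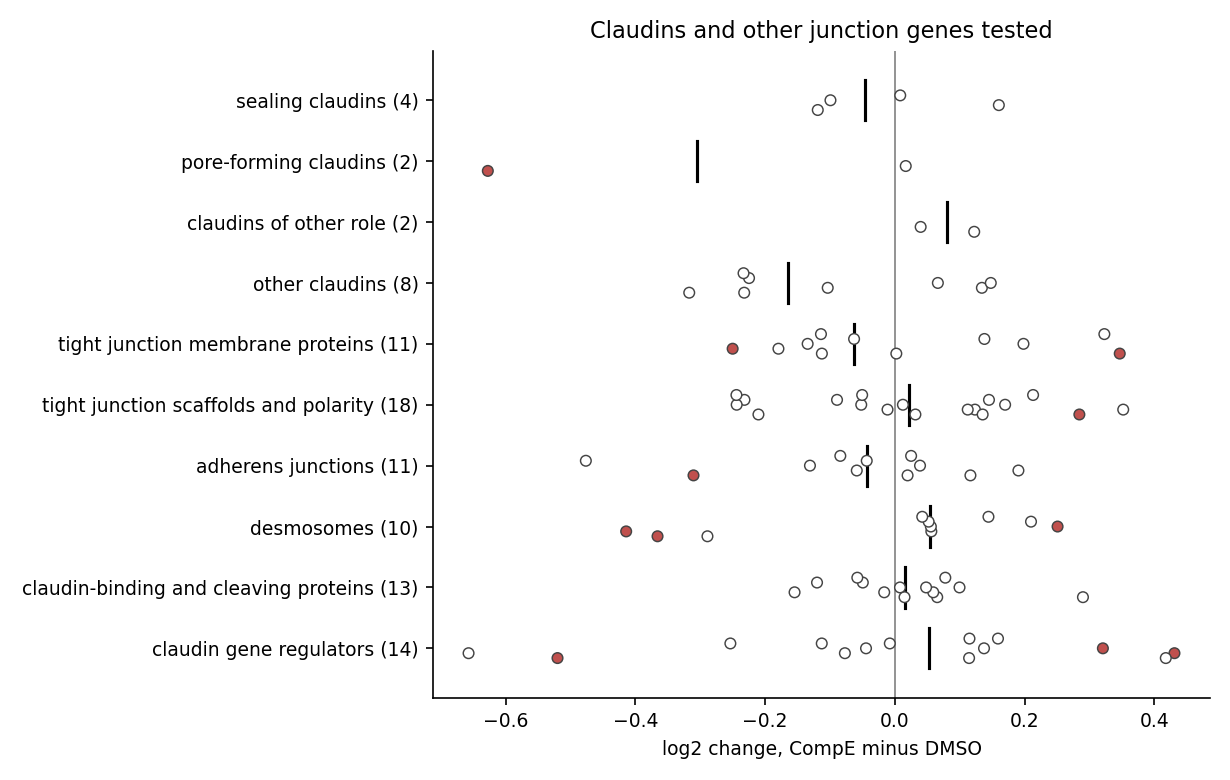
Log2 change, CompE minus DMSO (horizontal axis), of each gene tested in 10 gene lists (rows, with the number tested); filled points passed an adjusted p of 0.05 and the vertical bar is the list's median. CLDN2 at -0.63 is the leftmost point of the rows other than transcription factors; every list's median except that of the 2 pore-forming claudins lies between -0.16 and 0.08.

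Among proteins that bind claudins, cleave them or set tension at the junction, 0 of 13 genes tested passed in the limma fit (unadjusted p was under 0.05 for 1 higher and 1 lower gene). The median was 0.01. The smallest p belonged to WNK4, a kinase that phosphorylates claudins, at 70.9 ± 4.95 in CompE and 58.1 ± 5.04 in DMSO (SD, n = 3 each; log2 change 0.29, limma adjusted p = 0.111). EPCAM, which steadies CLDN7 at the membrane, changed by 0.06 (limma adjusted p = 0.567).

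Of 14 tested transcription factors known to act on claudin genes, 2 rose, 1 fell and 11 did not pass, with a median of 0.05. Over all genes tested 7.14% were called. VDR, the vitamin D receptor and an activator of CLDN2, fell to 1557 ± 51.1 in CompE, against 2233 ± 89.0 in DMSO (SD, n = 3 each; log2 change -0.52, limma adjusted p = 0.00755). Its arrays read 1573, 1499 and 1597 in CompE, against 2256, 2134 and 2308 in DMSO, with no overlap, and its 3 other probe sets were all negative with 2 past the threshold. CDX2, an intestinal homeobox factor that also activates CLDN2, rose to 727 ± 15.9 in CompE, against 539 ± 14.1 in DMSO (log2 change 0.43, limma adjusted p = 0.00873). These factors moved in opposite directions while CLDN2 fell, and whether either bears on CLDN2 was not tested.

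KLF4, a zinc finger factor of goblet cells, rose by 0.32 on the log2 scale (limma adjusted p = 0.0242). That call ended on leaving out any 1 array (highest adjusted p 0.0973). GRHL2, an activator of CLDN4 named after its values were seen, was at 601 ± 19.5 in CompE and 538 ± 14.6 in DMSO (SD, n = 3 each; log2 change 0.16, limma adjusted p = 0.130). The repressors SNAI1, SNAI2, ZEB1, ZEB2 and TWIST1, which silence claudin genes when epithelial cells turn mesenchymal, were all below the Bacillus level, the brightest of them ZEB1 at a mean of 24.4 in CompE and 15.8 in DMSO. None of the 5 was tested.

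The genes whose pattern over the 6 arrays was closest to that of CLDN2, by root mean square difference of log2 values centred on each gene's mean among 14307 genes, were GADD45B (0.034), EPHA2 (0.049) and TMC6 (0.053). A group difference of like size brings genes close by this measure. GADD45B, a stress-induced gene, was at 120 ± 7.34 in CompE and 179 ± 14.2 in DMSO (limma adjusted p = 0.0164). Its call ended in 3 of 6 fits with 1 array left out. EPHA2, an ephrin receptor gene, was at 392 ± 3.13 in CompE and 611 ± 19.1 in DMSO (SD, n = 3 each; limma adjusted p = 0.00259). TMC6 changed by -0.61 (limma adjusted p = 0.00617), but with probe sets averaged it did not pass (-0.41, limma adjusted p = 0.0657). CLDN2 stood 103rd by size among the 368 genes that fell, whose median change was -0.44. Among the 79 tested genes of the claudin, junction and claudin-binding lists it had the largest change.

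**Figure D4:**
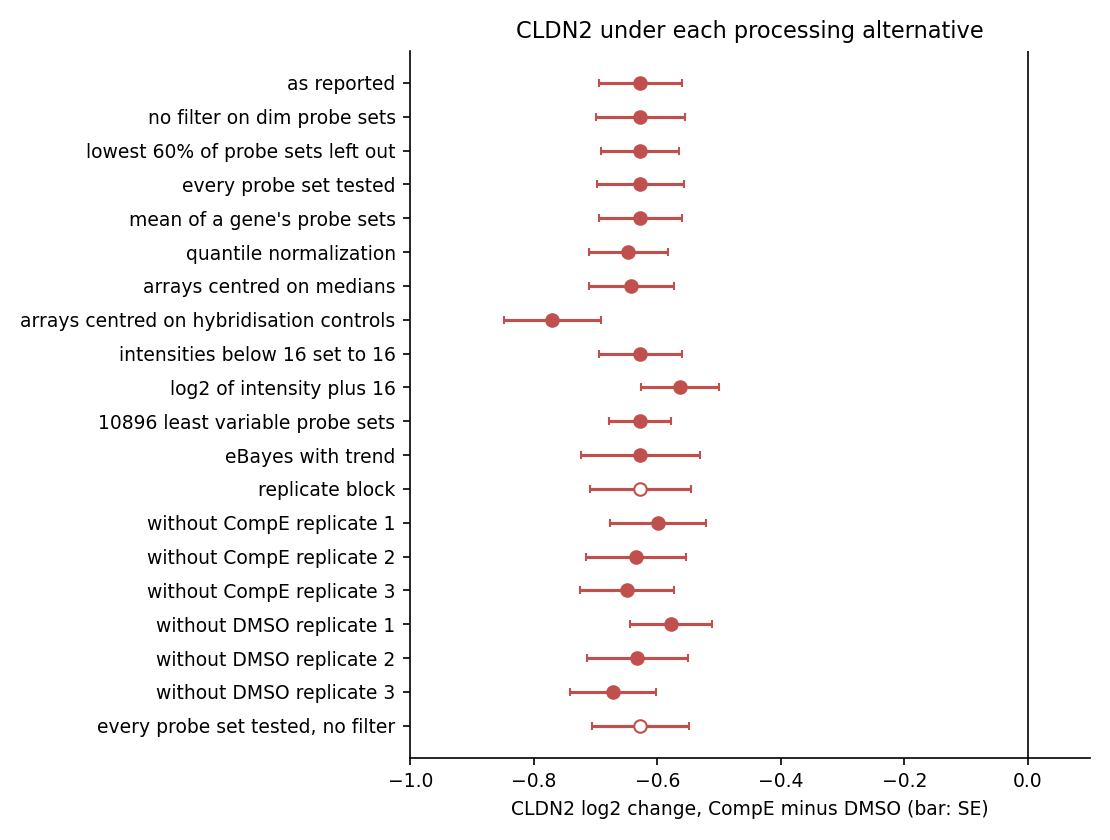
Log2 change of CLDN2, CompE minus DMSO (horizontal axis), with its SE as reported and under each alternative (rows); filled points passed an adjusted p of 0.05. All values lie between -0.77 and -0.56, and the open points are the fit with the replicate number as a block and the fit of every probe set with no filter.

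Some properties of the arrays moved with the groups to a small extent. The 3′ to 5′ ratio of ACTB, a measure of RNA integrity, was 1.51 ± 0.0193 in CompE and 1.44 ± 0.0201 in DMSO (SD, n = 3 each; exact permutation p = 0.1, two-sided). The same ratio of GAPDH went the other way, at 0.946 ± 0.0264 in CompE and 0.968 ± 0.0106 in DMSO (exact permutation p = 0.3). Hybridisation controls were 0.14 log2 units brighter in CompE (exact permutation p = 0.1). Centred on those controls, the median of all genes moved to -0.12, CLDN2 changed by -0.77, and 18.0% of called genes were higher in place of 64.0%. Such centring shifts every gene of an array by the same amount. The place of CLDN2 below the median of all genes was thus fixed in advance and says nothing on the scaling. The part of the ACTB ratio in these results was not tested.

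Markers of other cell types were partly above the Bacillus level. Of 7 fibroblast markers tested 2 fell, beside 2.57% of all genes tested. VIM, which many tumour lines also make, fell to 73.6 ± 2.96 in CompE, against 107 ± 6.31 in DMSO (SD, n = 3 each; limma adjusted p = 0.0115), and FAP, not above the Bacillus level in CompE, was at least 1.28-fold lower there (limma adjusted p = 0.0443). The FAP call ended whichever array was left out and that of VIM in 2 of 6 such fits (highest adjusted p 0.116 and 0.0563). The list's summed intensity was 413 to 435 in CompE and 429 to 540 in DMSO. Of the 7 tested, 6 were above the Bacillus level in at least 1 group, among them COL1A1 at 99.2 in CompE and 96.0 in DMSO and DCN at 84.1 in CompE and 75.2 in DMSO. The COL1A1 and DCN probe sets carry the x in their names that marks probes able to match other transcripts. Single arrays of DCN ran from 36.0 to 111. COL3A1 was under it, and so were COL6A3, PDGFRB and THY1, which the filter left out. Of 7 leukocyte markers 0 passed in the limma fit (unadjusted p was under 0.05 for 1 higher and 2 lower genes). Their sum was 1361 to 1654 in CompE and 1761 to 2047 in DMSO, most of it LYZ, which intestinal epithelium also makes, at 1271 ± 128 in CompE and 1580 ± 141 in DMSO (SD, n = 3 each; limma adjusted p = 0.132). Of the 7 leukocyte markers, 5 were above the Bacillus level in at least 1 group, CD79A at 88.2 in CompE and 99.2 in DMSO. PTPRC, the pan-leukocyte gene, was under it at 11.1 in CompE and 11.8 in DMSO. Of 5 endothelial markers 0 passed in the limma fit (unadjusted p was under 0.05 for 1 lower gene, KDR, with limma adjusted p = 0.143). Their sums were 264 to 296 in CompE and 270 to 353 in DMSO. More than any other endothelial marker, PECAM1 made up these sums, at 159 in CompE and 165 in DMSO, and it alone of the 5 was above the Bacillus level. CDH5, the cadherin of endothelium, was under it at 6.91 in CompE and 7.87 in DMSO. The part of these markers in the fall of CLDN2 was not tested.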

How the data were processed

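Per the labels' protocols and the series design text, RNA of 3 cultures per condition was amplified and labelled from the 3′ end, hybridised to Affymetrix U133 Plus 2.0 arrays, and the authors normalized the arrays with dChip. What they deposited is 1 linear intensity for each probe set and array. The sources used here name neither the dChip version nor the handling of mismatch probes, and the selection of 10,896 probes that the design text describes is not applied in the table of 54674 probe sets. Median intensities were 36.9 to 38.6 per array. Arrays of a group correlated at r = 0.987 to 0.988 across probe sets, arrays of different groups at 0.981 to 0.985.

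The deposited values were raised to a floor of 1 before the log2 step. Control probe sets (62) and the dimmest 40% (intensity under 24.4) were left out. Names came from the platform annotation, updated by Entrez identifier. The probe set with the highest mean stood for its gene. CompE was compared with DMSO by limma 3.58.1 (R 4.3.3; lmFit and eBayes, two-sided), adjusted by Benjamini-Hochberg over 14308 genes, and a gene rose or fell where the adjusted p was under 0.05. Another fit took all 26962 named probe sets past the filter, and another all 41091 without it. Intervals are limma's at 95%. The Bacillus level is the 95th percentile of 27 control probe sets. The code was tested on simulated data. Promoter sequences matched 7 of the 9 genes.

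The members and lists were chosen with earlier results of these data known. All members were described. From each other list up to 3 genes that passed were named, by smallest p, or else the 1 with the smallest p, with HES1, ATOH1 and OLFM4 as the agent check. Alternatives covered the filter, the floor, the scaling, the choice of probe sets, the variance model, a replicate block and each array left out. The array number limits the precision. Cultures shared a line, so p-values measure the spread between cultures of that line.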

Additional observations from a re-analysis of the deposited data

How the results depend on the processing

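The fall of CLDN2 kept its direction under all alternatives and passed in 17 of 19. The exceptions were the replicate block (-0.63, adjusted p = 0.0777) and the fit of every probe set with no filter, chosen after seeing the data (-0.63, adjusted p = 0.0620). Where only the filter, the choice of probe sets, the variance model or the block changed, the CLDN2 change stayed at -0.63 by construction. Its direction in those fits was thus fixed in advance. The replicate numbers are not known to pair the cultures: deviations of same-numbered arrays correlated at 0.02, -0.10 and -0.02. The counts of genes called (1021, of which 653 higher and 368 lower) moved more than any claudin. They were 363 (242 and 121) with no filter, 1751 (1117 and 634) with the lowest 60% left out, 1892 (340 and 1552) centred on hybridisation controls, 2226 (1381 and 845) with an eBayes trend and 102 (70 and 32) with the replicate block. With 1 array left out they were 252 to 519 (162 to 352 higher and 90 to 167 lower), fewer arrays being the difference. Among the 10896 least variable probe sets they were 2920 (1761 and 1159). There CLDN7 (-0.12, adjusted p = 0.0439) and CLDN23 (0.12, adjusted p = 0.0380) passed, but probe sets chosen for low spread understate the error by construction. The same holds for the pass of CLDN2 in that fit, which is among the 17. Uncalled changes near 0 turned sign. Centred on hybridisation controls these were CLDN3 (-0.13), CLDN15 (-0.13), CLDN12 (-0.10) and CLDN23 (-0.0203), by the subtraction of a constant. Centred on medians it was CLDN3 (-0.00614). Without CompE replicate 1, CLDN15 was -0.11, and without CompE replicate 2 or DMSO replicate 3, CLDN3 was -0.0276 or -0.0217. With arrays left out CLDN3 ranged from -0.0276 to 0.0496 and CLDN15 from -0.11 to 0.10. The sealing median (-0.05) was -0.10 with no filter, where CLDN8 entered, -0.19 on hybridisation controls and -0.10 among the least variable probe sets. The pore-forming median (-0.31) was -0.22 with probe sets averaged, -0.45 on hybridisation controls and -0.63 for CLDN2 alone among the least variable. Dim signal limits CLDN8 and the lesser CLDN23 probe sets, which were not well above background.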
